A study of Rattus norvegicus with 24 samples.

Results

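Histone genes were followed in RNA-seq of whole lung from male Wistar rats aged 5 to 6 weeks. They were the genes with a nonzero value whose name begins with Hist1h, Hist2h, Hist3h, H2af or H3f. No row of the expression table was named H1f0, and none of the histone rows carried a Hist4h name. This gave 39 gene IDs of 32489. The rats received silica particles at 200 mg/mL, or normal saline, by instillation into the trachea. The groups were silica at day 14, saline at day 14, silica at day 28 and saline at day 28, with 6 libraries each, labelled as biological replicates; no allele or other agent is named. Levels are the authors' FPKM, fragment counts divided by transcript length and library depth. Between genes they allow for length and depth, but not for how well the selection of RNA on poly-T beads retained each mRNA.

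Histones are the proteins around which DNA is wound: H2A, H2B, H3 and H4 form the nucleosome core, and H1 binds the linker DNA between cores. Most of their genes lie in clusters and are transcribed in S phase, when new DNA must be packed. They give mRNAs that end in a stem-loop in place of a poly(A) tail. Replacement histones come from scattered genes with ordinary poly(A) tails and are made throughout the cell cycle. They take the place of the canonical proteins at promoters, at DNA breaks or in silent chromatin. Of the histone genes, 30 had a replication-dependent name (21 Hist1, 7 Hist2 and 2 Hist3; by protein 6 H1, 12 H2A, 8 H2B, 2 H3 and 2 H4) and 9 were replacement histones (6 of the H2A and 3 of the H3 family). The RNA was selected on poly-T beads, per the labels' protocols, so the levels of the replication-dependent genes are those of the mRNA that such beads retain. Whole lung also cannot tell fewer cells of a type from less RNA per cell.

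Depth, recovered as whole reads from the steps of the FPKM values, was 55.06 to 84.6 M (mega) reads per library. Reads on mitochondrial genes made up 2.01 to 2.62% of reads in silica libraries at day 14, 2.15 to 3.92% in saline libraries at day 14, 2.13 to 4.10% in silica libraries at day 28 and 2.77 to 8.93% in saline libraries at day 28. The saline group at day 28 therefore stood apart, above all replicates 1, 2 and 6 with 8.93, 5.66 and 7.37%. The histone calls that rest on this group are also given without them. The group is then smaller, so a call can also end because fewer libraries remain. Summed markers of alveolar epithelium ranged from 21932 to 31766 FPKM in silica and from 21059 to 28551 FPKM in saline lungs at day 14, and from 17620 to 31749 FPKM in silica and from 15351 to 27204 FPKM in saline lungs at day 28; none of the 8 markers was at 0 in every library.

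The genes that the results turn on were few, and 4 of their upstream regions are shown because these genes were called higher in silica lungs at day 14 or, for Hist2h2ac, also share the region with an H2B gene that was not called. The sequences are the 250 bases before the RefSeq start in the build GRCr8, with capitals on 3 short motifs searched on both strands: CCAAT, ATGNAAAT (the octamer-like element of H2A and H2B genes) and TATAAA. Where motifs touch, they share 1 run of capitals. An entry was found for 31 of the 39 genes, in 30 distinct windows, because both Hist1h2an IDs match 1 entry. Hist2h2aa3, which RefSeq lists as a synonym of both Hist2h2aa2 and H2ac18, was matched to H2ac18 (chr2:186497021-186497270, plus strand), Hist2h2ac to H2ac20 (chr2:186469227-186469476, minus strand), Hist2h3c2 to its own name (chr2:186525912-186526161, plus strand) and H2afj to H2aj (chr4:171406672-171406921, plus strand).
Hist2h2aa3: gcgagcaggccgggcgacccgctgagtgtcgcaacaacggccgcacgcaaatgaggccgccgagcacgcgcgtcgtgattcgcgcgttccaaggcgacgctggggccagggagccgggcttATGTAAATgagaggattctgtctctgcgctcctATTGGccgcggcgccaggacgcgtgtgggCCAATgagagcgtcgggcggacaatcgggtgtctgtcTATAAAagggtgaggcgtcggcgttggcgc
Hist2h2ac: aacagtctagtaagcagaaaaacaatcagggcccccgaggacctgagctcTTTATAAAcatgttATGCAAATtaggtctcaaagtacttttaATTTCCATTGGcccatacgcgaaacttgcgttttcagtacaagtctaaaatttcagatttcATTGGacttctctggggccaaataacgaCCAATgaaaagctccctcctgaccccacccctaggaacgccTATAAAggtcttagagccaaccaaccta
Hist2h3c2: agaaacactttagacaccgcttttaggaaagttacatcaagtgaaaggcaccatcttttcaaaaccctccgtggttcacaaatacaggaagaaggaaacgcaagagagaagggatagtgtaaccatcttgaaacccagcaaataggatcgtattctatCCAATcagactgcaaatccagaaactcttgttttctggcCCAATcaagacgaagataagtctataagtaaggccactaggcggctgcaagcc
H2afj: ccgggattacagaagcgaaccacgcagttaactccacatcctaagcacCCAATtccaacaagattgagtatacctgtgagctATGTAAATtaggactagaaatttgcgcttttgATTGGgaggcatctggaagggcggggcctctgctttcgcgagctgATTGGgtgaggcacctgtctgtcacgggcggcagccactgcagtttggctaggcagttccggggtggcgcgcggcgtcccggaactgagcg

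The window of Hist2h2aa3 began with an identical stretch of 221 bases that is also in the window of Hist2h2aa2 (chr2:186490765-186491014, minus strand), where it starts at base 30. The window of Hist2h2ac contained, from base 26 on, 225 bases of the reverse complement of the window of Hist2h2be (chr2:186469202-186469451, plus strand), so these H2A and H2B genes stand head to head on 1 shared upstream region. CCAAT occurred in 21 of the 23 matched replication-dependent windows (91.3%), in 5 of 7 replacement windows (71.4%) and in 34.0% of all 33469 RefSeq windows. ATGNAAAT was in 13 of the 17 matched H2A and H2B windows with Hist names (76.5%), in 2 of 7 replacement windows and in 5.27% of all windows. TATAAA was in 15 of the 23 replication-dependent windows (65.2%), in 1 of 7 replacement windows and in 12.9% of all. A match is a match of letters only.

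Levels spanned a wide range among the histone genes. Hist1h1c, which encodes a linker histone H1, had the highest mean level of the replication-dependent genes, 209.5 FPKM over the 24 libraries, and took 62.3 ± 3.01% of all replication-dependent FPKM in silica lungs at day 14, 71.0 ± 3.84% in saline lungs at day 14, 58.9 ± 2.96% in silica lungs at day 28 and 62.1 ± 5.26% in saline lungs at day 28 (SD, n = 6). The highest of each core family were Hist1h4b (H4, 31.7 FPKM), Hist2h2aa3 (H2A, 30.0 FPKM), Hist2h2be (H2B, 13.4 FPKM) and Hist2h3c2 (H3, 1.06 FPKM). Among the replacement histones H3f3b, 1 of the genes of the H3.3 protein, was highest at 811.8 FPKM and H2afy2, a macroH2A gene, lowest at 2.72 FPKM. Among the replication-dependent genes 8 (Hist1h1a, Hist1h2aa, Hist1h2ak, Hist2h2ab, Hist1h2bh, Hist1h2bl, Hist3h2bb and Hist1h3a) did not reach 0.5 FPKM in 6 libraries, with mean levels of 0.0420 to 0.285 FPKM, and were not tested. This left 22 replication-dependent and all 9 replacement genes.

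**Figure D1:**
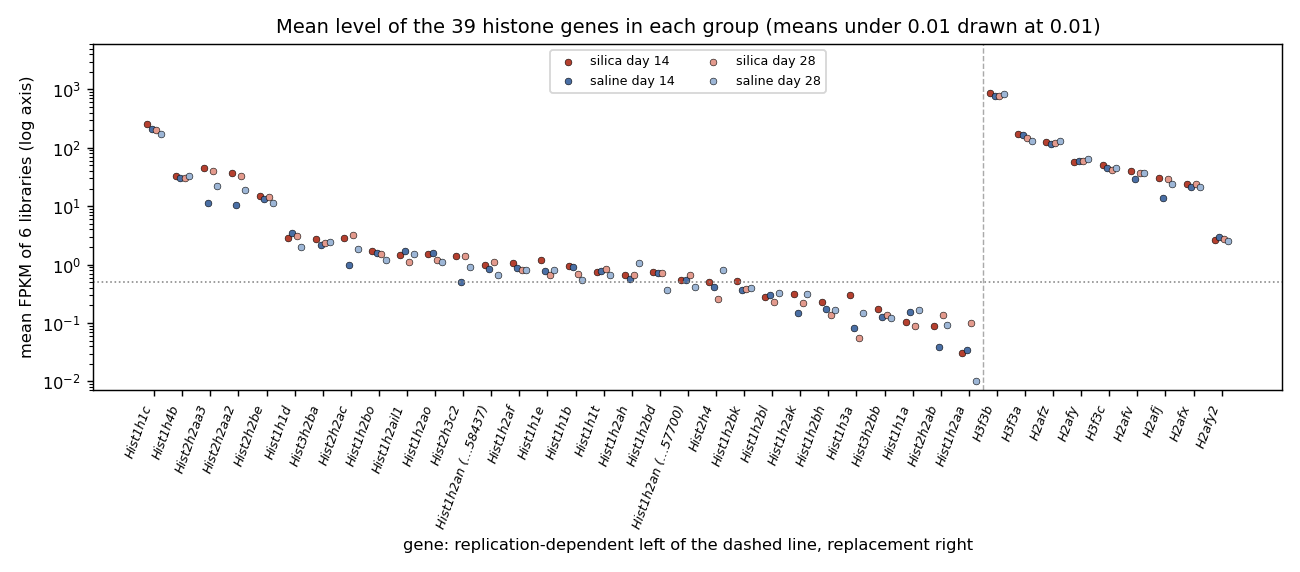
Mean FPKM of each of the 39 histone genes in the 4 groups (log axis, 6 libraries per mean); the dotted line is 0.5 FPKM. Apart from Hist1h1c, Hist1h4b, Hist2h2aa3, Hist2h2aa2 and Hist2h2be, the replication-dependent genes lay below 4 FPKM in every group mean, while 8 of the 9 replacement genes lay above 10 FPKM in all 4 groups. Retention on poly-T beads may differ between these classes and was not measured.

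The first comparison asked how silica lungs differed from saline lungs at day 14. Of the 22 tested replication-dependent genes, 4 rose and 0 fell, and of the 9 replacement genes 1 rose and 0 fell (limma, Benjamini-Hochberg adjusted p under 0.05 over 20856 genes), where 4.37% of all tested genes were called, 2.7% higher and 1.66% lower. All 4 replication-dependent genes that rose carry Hist2 names: the H2A genes Hist2h2aa3, Hist2h2aa2 and Hist2h2ac, and the H3 gene Hist2h3c2. Hist2h2aa3 and Hist2h2aa2 are near copies whose values may hold each other's reads, so they may not count separately. The replacement gene that rose was H2afj, which encodes H2A.J, a variant that accumulates in senescent human fibroblasts. The median log2 change was 0.11 over the 22 replication-dependent and 0.13 over the 9 replacement genes, beside -0.0023 over all tested genes.

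Hist2h2aa3, an H2A gene (ENSRNOG00000052555), had a lowest, median and highest level of 39.2, 44.2 and 61.8 FPKM in silica lungs at day 14, against 5.89, 10.6 and 22.5 FPKM in saline lungs at day 14. Every silica library was above every saline library. The log2 change was 2.01 ± 0.34 (SE; adjusted p = 0.00087 by limma), a 4.02-fold rise on the log2(FPKM + 1) scale. It ranked 33 from the top among the 20856 tested genes. Behind these levels stood 919 to 1614 reads per library in silica and 196 to 604 reads in saline lungs.

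Its near copy Hist2h2aa2 (ENSRNOG00000047898) had 30.8, 35.6 and 48.3 FPKM (lowest, median, highest) in silica lungs at day 14, against 6.12, 9.23 and 19.1 FPKM in saline lungs at day 14. These groups did not overlap either, and the log2 change was 1.79 ± 0.29 (SE; adjusted p = 0.00055 by limma). The level of Hist2h2aa2 divided by that of Hist2h2aa3 stayed between 0.760 and 1.10 in the 24 libraries. How reads that match both copies were handled is not given in the sources used here. Their values may hold each other's reads and are best read as 1 measurement.

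Hist2h3c2, the H3 gene of the cluster, had 1.00, 1.40 and 1.82 FPKM (lowest, median, highest) in silica lungs at day 14, against 0.0863, 0.548 and 0.780 FPKM in saline lungs at day 14. The groups did not overlap, although the gene rested on few reads, 25 to 56 per library in silica and 3 to 21 in saline lungs. The log2 change was 0.67 ± 0.14 (SE; adjusted p = 0.0075 by limma). The pseudocount of 1 compresses it: in the authors' deposited table the log2 fold change was 1.48, with an adjusted p of 0.0089.

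Hist2h2ac, a further H2A gene, had 0.672, 3.09 and 4.22 FPKM (lowest, median, highest) in silica lungs at day 14, against 0.508, 0.813 and 1.94 FPKM in saline lungs at day 14. Of the 6 silica libraries, 5 were above every saline library, and replicate 5 with 0.672 FPKM lay among the saline values. The log2 change was 0.90 ± 0.24 (SE; adjusted p = 0.036 by limma). Without silica day 14 replicate 5 it was 1.12 (adjusted p = 0.0029). Leaving out any 1 of saline day 14 replicates 2 to 6 or silica day 14 replicates 1, 2, 4 and 6 ended the call, as did limma-voom on recovered reads (log2 change 1.48, adjusted p = 0.063). This rise is less firm than those of the genes above.

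The H2B gene Hist2h2be, on the other side of the upstream region shared with Hist2h2ac, had 10.2, 14.7 and 20.3 FPKM (lowest, median, highest) in silica lungs at day 14, against 11.3, 12.9 and 15.8 FPKM in saline lungs at day 14. The groups overlapped, and the log2 change was 0.10 ± 0.16 (SE; adjusted p = 0.76 by limma), with a 95% interval of -0.20 to 0.41. The level of Hist2h2ac relative to that of Hist2h2be had a median of 0.159 in silica and 0.0597 in saline lungs at day 14, with ranges of 0.0469 to 0.397 and 0.0415 to 0.149 that overlapped. The difference of the 2 genes' changes was not tested. The H4 gene Hist2h4 had a log2 change of 0.11 and was not called.

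**Figure D2:**
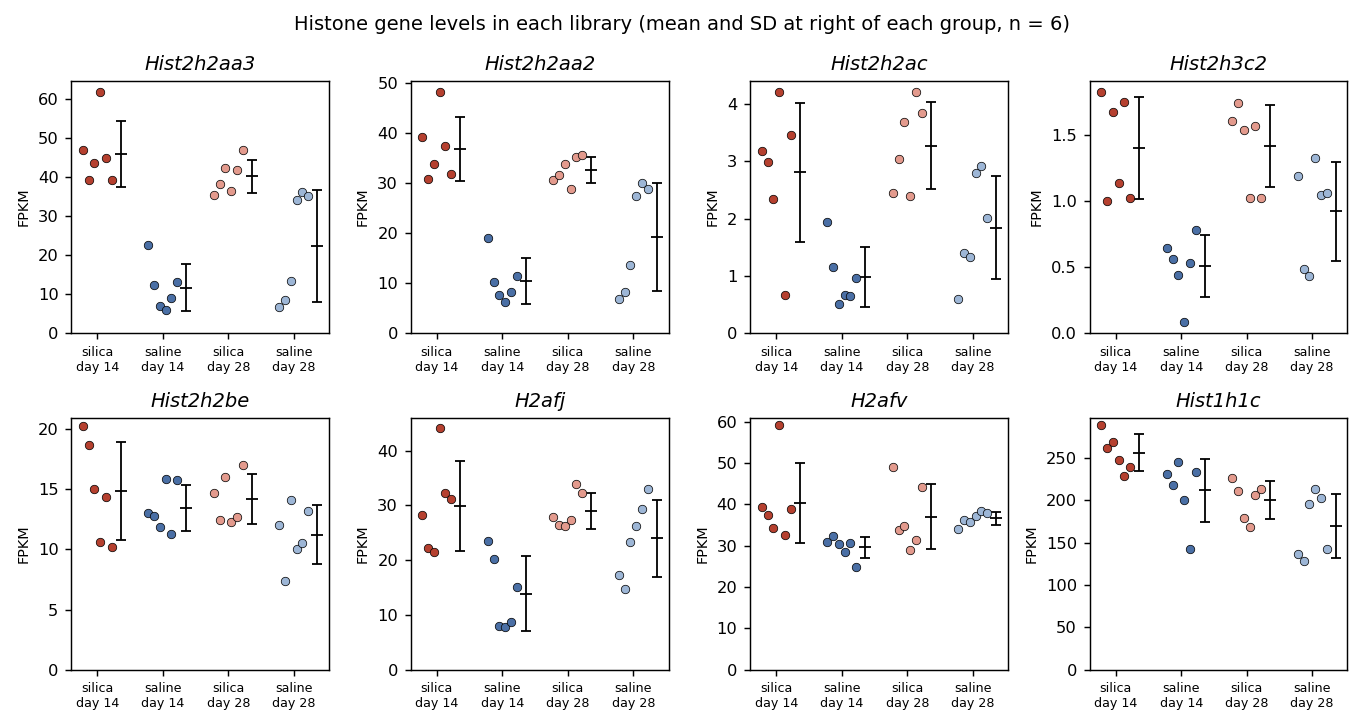
FPKM of 8 histone genes in each library (points, replicates 1 to 6 from left to right), with the mean and SD of each group beside them. At day 14 the silica libraries of Hist2h2aa3, Hist2h2aa2, Hist2h3c2 and H2afv lay above all saline libraries, and at day 28 saline replicates 4, 5 and 6 of Hist2h2aa3 lay at 34.2 to 36.2 FPKM, close to the silica range of 35.4 to 46.8 FPKM.

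No tested gene with a Hist1 or Hist3 name was called at day 14. The 18 uncalled replication-dependent genes had log2 changes of -0.23 to 0.33 with adjusted p-values of at least 0.23. The abundant linker gene Hist1h1c had 228.9, 254.4 and 289.4 FPKM (lowest, median, highest) in silica lungs at day 14, against 142.4, 224.3 and 245.6 FPKM in saline lungs at day 14, with overlap and a log2 change of 0.29 ± 0.14 (SE; adjusted p = 0.23 by limma). Hist1h4b, the most abundant H4 gene, had a log2 change of 0.14 ± 0.095 (SE; adjusted p = 0.44, limma).

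Summed levels were also compared by cluster, without a test. The 7 Hist2 genes came to 102.4 ± 14.8 FPKM in silica lungs and 37.4 ± 11.1 FPKM in saline lungs at day 14, and to 92.1 ± 8.81 FPKM in silica lungs and 56.4 ± 27.1 FPKM in saline lungs at day 28 (SD, n = 6). The 20 Hist1 genes other than Hist1h1c came to 49.4 ± 4.39 FPKM in silica and 45.9 ± 4.03 FPKM in saline lungs at day 14, and to 45.1 ± 4.66 FPKM in silica and 45.5 ± 3.92 FPKM in saline lungs at day 28 (SD, n = 6). The Hist2 sum is mostly Hist2h2aa2 and Hist2h2aa3, whose values may hold each other's reads, so it may count some reads more than once.

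H2afj had 21.5, 29.6 and 44.1 FPKM (lowest, median, highest) in silica lungs at day 14, against 7.83, 11.9 and 23.5 FPKM in saline lungs at day 14. The groups overlapped because saline replicate 1 with 23.5 FPKM lay among the lower silica libraries. The log2 change was 1.14 ± 0.24 (SE; adjusted p = 0.0065 by limma), and it stayed called when any 1 of the 24 libraries was left out. A row described as histone H2A, LOC103690002, rose as well (log2 change 1.16 ± 0.25, adjusted p = 0.0069 by limma). The level of H2afj divided by that of this row stayed between 0.822 and 0.861 in all 24 libraries, so their reads may also be shared.

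H2afv, which encodes the H2A.Z.2 form of the promoter-bound variant H2A.Z, had 32.6, 38.2 and 59.2 FPKM (lowest, median, highest) in silica lungs at day 14, against 24.9, 30.6 and 32.3 FPKM in saline lungs at day 14. The groups did not overlap, by a narrow margin, and the log2 change of 0.41 ± 0.12 missed the threshold (SE; adjusted p = 0.059 by limma). It passed with equal library medians (adjusted p = 0.043) and in the authors' deposited table (adjusted p = 0.019), and without silica replicate 4 at day 14 the log2 change was 0.30 with an adjusted p of 0.15. Together with Hist2h2aa3, Hist2h2aa2 and Hist2h3c2 it made 4 tested histone genes whose day 14 groups did not overlap, where 5.0% of all tested genes had none. Among these, Hist2h2aa3 and Hist2h2aa2 may hold each other's reads, so they may not count separately.

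The other 7 replacement histones were not called at day 14, with log2 changes of -0.16 to 0.19. H2afz, the main H2A.Z gene, changed by 0.12 ± 0.11, and H2afx, whose protein is phosphorylated at DNA breaks, by 0.19 ± 0.12 (log2, SE). The H3.3 genes H3f3a and H3f3b, which supply H3 outside S phase, changed by 0.04 ± 0.083 and 0.13 ± 0.12, and H3f3c by 0.16 ± 0.11 (log2, SE). The macroH2A genes H2afy and H2afy2, whose proteins are known from silent chromatin, changed by -0.04 ± 0.069 and -0.16 ± 0.16 (log2, SE).

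**Figure D3:**
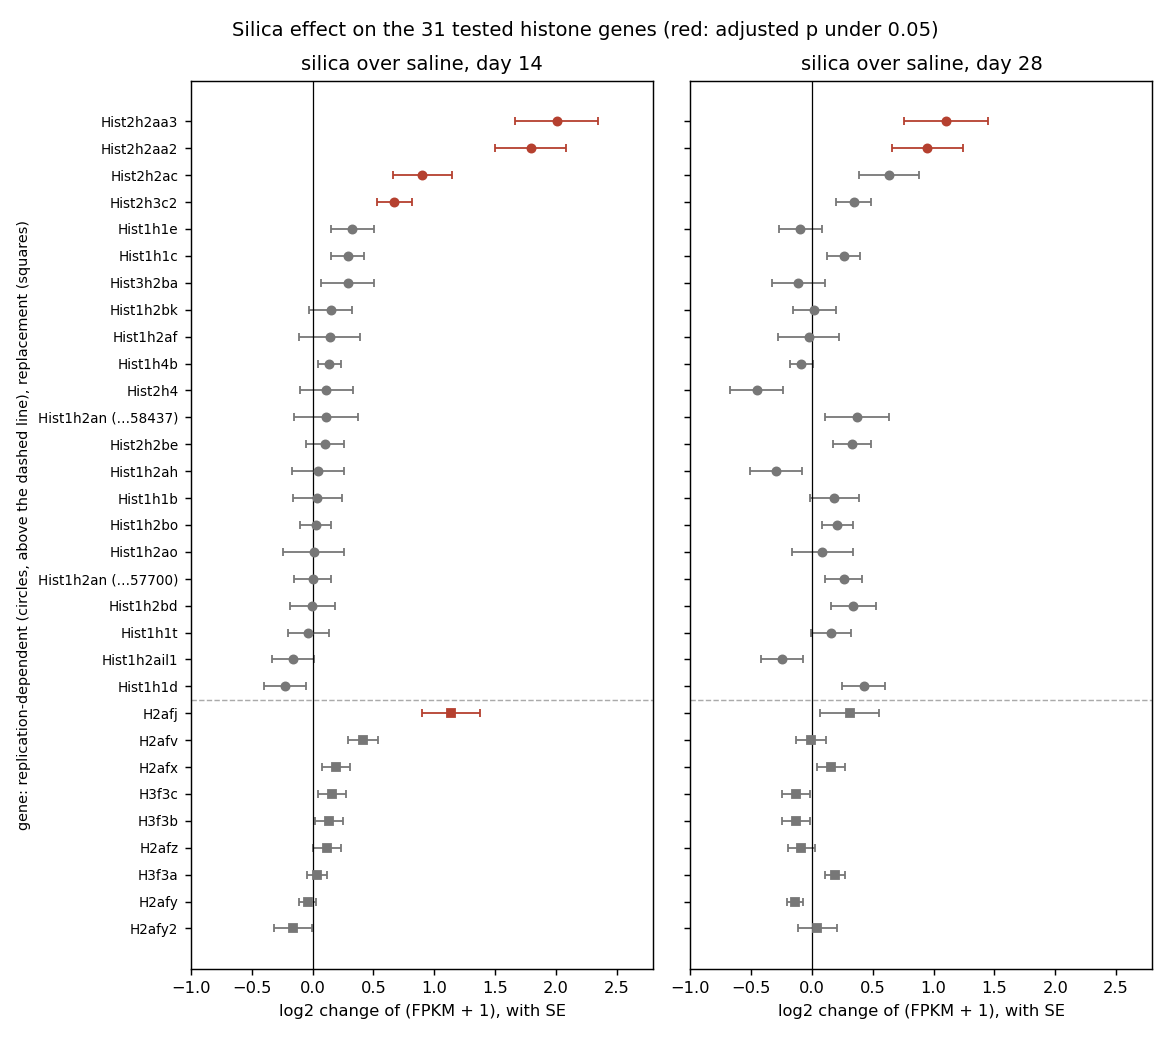
Log2 change of FPKM + 1, silica over saline, with its SE, for the 31 tested histone genes at day 14 (left) and day 28 (right); circles are replication-dependent and squares replacement genes, and red marks an adjusted p under 0.05. At day 14 the red genes are 4 Hist2 genes and H2afj, and at day 28 Hist2h2aa3 and Hist2h2aa2.

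At day 28, Hist2h2aa3 and Hist2h2aa2 were the histone genes that rose in silica against saline lungs: 2 of 22 replication-dependent genes were called, both higher, and 0 of 9 replacement genes, where 13.8% of all tested genes were called, 5.3% higher and 8.47% lower. By limma-voom on recovered reads the counts were also 2 and 0, with 11.4% of all tested genes called, and 7 of the replication-dependent and 1 of the replacement genes had an unadjusted p under 0.05, which 31.0% of all tested genes had. The median log2 change was 0.20 over the replication-dependent and -0.0075 over the replacement genes, beside -0.03 over all tested genes. No histone gene had groups without overlap, where 2.92% of all tested genes had such groups.

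Hist2h2aa3 had 35.4, 40.0 and 46.8 FPKM (lowest, median, highest) in silica lungs at day 28, against 6.72, 23.7 and 36.2 FPKM in saline lungs at day 28. The saline libraries fell apart into 6.72, 8.36 and 13.2 FPKM in replicates 1, 2 and 3 and 34.2, 36.2 and 35.2 FPKM in replicates 4, 5 and 6, so the upper 3 reached the silica range or lay just below it. The percent of mitochondrial reads in the same 6 libraries was 8.93, 5.66, 4.41, 2.77, 4.08 and 7.37, and its part in this spread was not tested. Hist2h2aa2 showed the same split, with 28.9 to 35.6 FPKM in silica lungs, against 6.81, 8.18, 13.7, 27.4, 30.1 and 28.8 FPKM in saline replicates 1 to 6 at day 28.

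The log2 change at day 28 was 1.10 ± 0.34 for Hist2h2aa3 (adjusted p = 0.036) and 0.95 ± 0.29 for Hist2h2aa2 (adjusted p = 0.035; SE, limma). Neither call is firm, nor were most calls of that contrast: 0.288% of all tested genes were called without the 3 saline libraries high in mitochondrial reads, and 0.125% with the mitochondrial percent as a covariate. Without the 3 saline libraries high in mitochondrial reads, the log2 changes were 0.63 (adjusted p = 0.41) and 0.51 (adjusted p = 0.40), and both calls also ended when saline replicate 1, 2 or 3 or silica replicate 3, 4, 5 or 6 of day 28 was left out (for Hist2h2aa3, 0.84 to 1.29 over all 24 fits with 1 library left out, adjusted p 0.011 to 0.11). In the authors' deposited table the log2 fold changes at day 28 were 0.88 (adjusted p = 0.12) and 0.80 (adjusted p = 0.11).

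The remaining genes that rose at day 14 were not called at day 28. Hist2h2ac had 2.39, 3.37 and 4.21 FPKM (lowest, median, highest) in silica lungs at day 28, against 0.604, 1.71 and 2.92 FPKM in saline lungs at day 28, a log2 change of 0.63 ± 0.24 (SE; adjusted p = 0.081 by limma). Hist2h3c2 had a log2 change of 0.34 ± 0.14 at day 28 (SE; adjusted p = 0.11, limma). H2afj had 26.1, 27.7 and 34.0 FPKM in silica lungs at day 28, against 14.7, 24.8 and 32.9 FPKM in saline lungs at day 28. These ranges overlapped, and the log2 change was 0.31 ± 0.24 with a 95% interval of -0.16 to 0.78 (SE; adjusted p = 0.40 by limma). Hist2h2be differed by 0.33 ± 0.16 (SE; adjusted p = 0.15 by limma).

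The replacement histones at day 28 had log2 changes of -0.14 to 0.31. H2afv, with no overlap at day 14, had a log2 change of -0.0075 ± 0.12 at day 28, and H3f3a one of 0.19 ± 0.083 (adjusted p = 0.12 by limma). The other values were 0.15 for H2afx, 0.04 for H2afy2, -0.09 for H2afz, -0.13 for H3f3b, -0.13 for H3f3c and -0.14 for H2afy, none of them called.

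Whether the silica effect differed between the days was tested directly, as the effect at day 28 minus that at day 14. None of the 31 histone genes was called by limma, where 9.93% of all tested genes were called; 3 (Hist1h1d, H2afj and H2afv) had an unadjusted p under 0.05, as 29.0% of all tested genes did, and limma-voom on recovered reads called 0 histone genes and 9.31% of all tested genes. The differences were -0.91 ± 0.48 for Hist2h2aa3 (adjusted p = 0.22), -0.85 ± 0.41 for Hist2h2aa2 (adjusted p = 0.18) and -0.83 ± 0.34 for H2afj (adjusted p = 0.11), with a 95% interval of -1.86 to 0.04 for Hist2h2aa3. Hist2h2aa3 and Hist2h2aa2 were called on both days, and H2afj, Hist2h2ac and Hist2h3c2 at day 14 alone. For none of these genes is a change of the silica effect between the days therefore shown. Without the 3 saline libraries high in mitochondrial reads the differences were -1.38 for Hist2h2aa3 (adjusted p = 0.10) and -1.28 for Hist2h2aa2 (adjusted p = 0.085 by limma), still not called, where 0.0384% of all tested genes were called.

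Within the silica group, day 28 was set against day 14. No histone gene was called, where 1 of the 20856 tested genes was called (0.00479%); 4 had an unadjusted p under 0.05, as 8.81% of all tested genes did, and limma-voom called 0 histone genes (0.0% of all tested genes). Hist1h1c with 167.9 to 226.6 FPKM at day 28, against 228.9 to 289.4 FPKM at day 14, and H3f3a with 139.9 to 152.2 FPKM, against 154.6 to 207.7 FPKM, were the 2 histone genes whose silica libraries did not overlap between the days, where 0.686% of all tested genes had none. The adjusted p of Hist1h1c was 0.47 by limma. Hist2h2aa3 changed by -0.18 ± 0.34 and H2afj by -0.0098 ± 0.24 (log2, SE).

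Within the saline group, 1 of 22 replication-dependent genes fell and 0 rose at day 28 against day 14, and of the 9 replacement genes 1 rose and 1 fell, where 25.2% of all tested genes were called, 14.1% higher and 11.1% lower. The linker gene Hist1h1d had 0.993, 2.19 and 2.72 FPKM (lowest, median, highest) in saline lungs at day 28, against 2.86, 3.62 and 3.80 FPKM at day 14, with no overlap and a log2 change of -0.61 ± 0.18 (SE; adjusted p = 0.016 by limma). H3f3a had 98.5, 134.9 and 143.7 FPKM at day 28, against 150.3, 168.6 and 175.0 FPKM at day 14, also with no overlap, where 8.46% of all tested genes had none, and a log2 change of -0.35 ± 0.083 (SE; adjusted p = 0.0055 by limma). H2afj rose to 14.7, 24.8 and 32.9 FPKM at day 28, against 7.83, 11.9 and 23.5 FPKM at day 14, with overlap and a log2 change of 0.82 ± 0.24 (SE; adjusted p = 0.017 by limma).

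These 3 saline time calls ended without the 3 saline libraries high in mitochondrial reads, where 1.73% of all tested genes were called: the log2 change was then -0.39 for Hist1h1d (adjusted p = 0.26), -0.22 for H3f3a (adjusted p = 0.12) and 0.99 for H2afj (adjusted p = 0.068). The change of H2afj was thus larger than the 0.82 with all libraries, although its call ended in the smaller group. Hist2h2aa3 and Hist2h2aa2 changed by 0.73 ± 0.34 (adjusted p = 0.12) and 0.69 ± 0.29 (adjusted p = 0.086) in the same contrast and were not called (log2, SE, limma). Without those 3 libraries their changes were larger, 1.20 for Hist2h2aa3 (adjusted p = 0.051) and 1.12 for Hist2h2aa2 (adjusted p = 0.034 by limma), so Hist2h2aa2 gained a call.

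The Hist2 genes lie together on chromosome 2, and neighbouring genes were compared with them. In the GRCr8 gene order, Otud7b, Mtmr11, Sf3b4, Sv2a and Bola1 precede the histone cluster, and Fcgr1a, Hjv, Txnip, Polr3gl and Ankrd34a follow it. Of the 9 neighbours tested, Txnip, an inhibitor of thioredoxin, was the 1 called at day 14 (0.50 ± 0.11, adjusted p = 0.011 by limma). At day 28 Polr3gl, a subunit of RNA polymerase III, was the 1 called (-0.53 ± 0.15, adjusted p = 0.025 by limma), and this call ended without the 3 saline libraries high in mitochondrial reads (-0.22, adjusted p = 0.57). The largest day 14 changes in this stretch, by point estimate, belonged to Hist2h2aa3, Hist2h2aa2 and Hist2h2ac, while Hist2h2be between them and Hist2h4 beside them changed by 0.10 and 0.11.

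**Figure D4:**
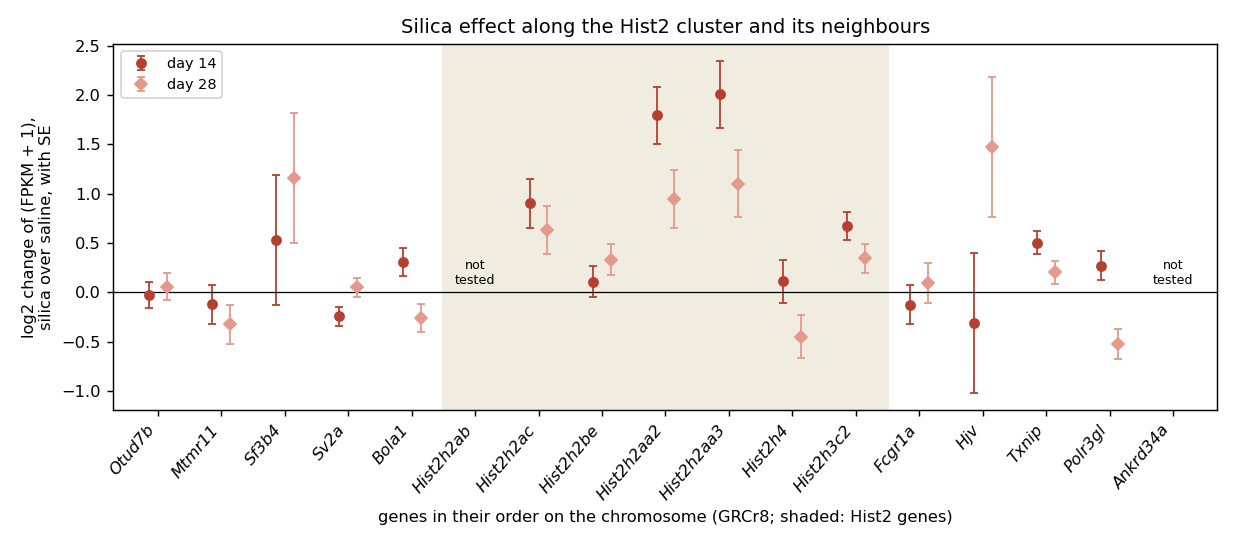
Log2 change of FPKM + 1, silica over saline, with its SE, at day 14 (circles) and day 28 (diamonds) for the Hist2 genes (shaded) and the 5 genes on either side, in chromosome order. Hist2h2aa3 and Hist2h2aa2 stand at 2.01 and 1.79 at day 14, and their neighbours Hist2h2be and Hist2h4 at 0.10 and 0.11; Hist2h2ab and Ankrd34a were not tested.

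Genes that make, carry or exchange histones were counted at day 14, where 4.37% of all tested genes were called. In the list for transcription and 3-prime processing of histone mRNA, 1 of 15 rose (Upf1, an RNA helicase of histone mRNA decay, 0.25 ± 0.071, adjusted p = 0.047) and 1 fell (Cpsf2, part of the cleavage complex, -0.25 ± 0.070, adjusted p = 0.046; log2, SE, limma). Slbp, whose protein binds the stem-loop, had a log2 change of -0.15 and Npat, the transcriptional activator of these genes, one of 0.03, neither called. Of 22 chaperone IDs, 1 fell, an ID of Atrx (ENSRNOG00000046897), which deposits H3.3 with Daxx (-0.67 ± 0.17, adjusted p = 0.027 by limma). The other Atrx ID, ENSRNOG00000056703, was not called. Without the 3 saline libraries of day 28 high in mitochondrial reads, its day 14 log2 change was -0.33 (adjusted p = 0.11 by limma). Of 23 genes of DNA replication and S phase, 0 were called in either direction, with a median log2 change of -0.18 beside -0.0023 over all tested genes and an adjusted p of 0.056 for Mki67 (-0.72 ± 0.21, limma). Of these 23 genes, 10 had an unadjusted p under 0.05, which 20.3% of all tested genes had, and limma-voom on recovered reads called 1, beside 4.76% of all tested genes. Without the 3 saline libraries of day 28 high in mitochondrial reads, which enter this contrast only through the shared spread, 1 S phase gene was called higher (Mcm7) and 2 lower (Mki67 and Cdk1), where 6.22% of all tested genes were called.

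Among 15 exchange factors and partners of linker histones, 3 rose at day 14: Hmga1, which competes with H1 for chromatin (0.63 ± 0.12, adjusted p = 0.0035), and Yeats4 and Dmap1, subunits of the complexes that load H2A.Z (0.49 ± 0.097, adjusted p = 0.0035, and 0.38 ± 0.084, adjusted p = 0.0092; log2, SE, limma). At day 28, where 5.3% of all tested genes were called higher and 8.47% lower, the higher and lower calls were 3 and 1 of 15 in the processing list, 4 and 0 of 22 among chaperones, 3 and 0 of 23 in the S phase list (Mcm7, Mcm2 and Pola1, 0.39 to 0.46) and 2 and 1 of 15 among exchange factors. Without the 3 saline libraries high in mitochondrial reads, 1 gene of these 4 lists was called at day 28 (Upf1, 0.38, adjusted p = 0.0059 by limma). Within saline, 1 of the 23 S phase genes rose and 10 fell at day 28 against day 14, where 14.1% of all tested genes were called higher and 11.1% lower, and 0 were called without those 3 libraries.

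RNAs without a poly(A) tail were also counted. Of 100 such IDs tested, 0 were called at day 14 by limma, beside 4.37% of all tested genes, with a median log2 change of 0.03. An unadjusted p under 0.05 belonged to 4 of them, beside 20.3% of all tested genes. By limma-voom 0 were called, beside 4.76% of all tested genes. At day 28, 3 were called higher and 7 lower with a median of -0.14 (silica over saline, limma), beside 5.3% higher and 8.47% lower over all tested genes. By limma-voom 4 were called, beside 11.4% of all tested genes, and by limma 1 without the 3 saline libraries high in mitochondrial reads. Their summed level ranged from 898.1 to 1519 FPKM in silica and from 959.3 to 1960 FPKM in saline lungs at day 14, and from 1011 to 2294 FPKM in silica and from 1399 to 4692 FPKM in saline lungs at day 28. A single ID named RF00100 made up 59.0 to 75.5% of the sum in silica and 71.6 to 78.9% in saline lungs at day 14. Without it the sums were 285.5 to 586.9 FPKM in silica and 234.1 to 414.6 FPKM in saline lungs at day 14. The part of such RNAs in the histone values was not tested.

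The histone genes that rose are short, and short genes were looked at as a class. Gene lengths were 393 bases for Hist2h2aa3, 577 for Hist2h2aa2, 378 for Hist2h2ac, 411 for Hist2h3c2 and 483 for H2afj. Among the 2835 tested genes under 600 bases, 2.12% were called higher in silica at day 14 and 0.282% lower, with a median log2 change of 0.06. Among the 6290 genes of 3000 bases or more, 0.906% were called higher and 3.83% lower, with a median of -0.11. In the shorter and the longer class between 600 and 3000 bases, 4.29% and 3.7% were called higher. In the same classes 0.316% and 0.956% were called lower, with medians of 0.08 and 0.03. Genes under 600 bases were thus called higher less often than all tested genes (2.7%). Large rises were more frequent among them, however: 1.62% had a log2 change of at least 1 at day 14, beside 0.834% of all tested genes. The 95th percentile of the log2 change was 0.60 in this class and 0.46 over all tested genes. Lower calls became more frequent with length, and the median was negative in the longest class alone. The part of length in the histone values was not tested.

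Markers of other cell types were counted in the same way. At day 14, where 4.37% of all tested genes were called, none of the markers of alveolar (8), airway (5), endothelial (5), macrophage (6), T and NK (6), B and plasma (5), neutrophil (6) or cardiac (5) cells was called, while 1 of 7 fibroblast and smooth muscle markers (Col1a1, -0.50 ± 0.12) and 1 of 6 erythroid markers (Slc4a1, -0.76 ± 0.19) fell (log2, SE, limma). Unadjusted p-values under 0.05 belonged to 2 alveolar, 2 airway, 2 endothelial and 1 neutrophil marker, where 20.3% of all tested genes had one. The same held for 2 fibroblast and smooth muscle and 2 erythroid markers, with Col1a1 and Slc4a1 among them. By limma-voom 1 airway, 1 fibroblast and smooth muscle and 1 erythroid marker were called, beside 4.76% of all tested genes. At day 28, where 13.8% of all tested genes were called, 3 of 5 airway markers fell (Dnah9, Scgb3a2 and Scgb1a1, -1.05 to -1.43), with summed airway levels of 9259 to 26279 FPKM in silica and 15259 to 57321 FPKM in saline lungs, and Aqp5, Col1a1 and Csf1r rose by 0.45, 0.42 and 0.56 (log2). None of these 6 markers was called at day 28 without the 3 saline libraries high in mitochondrial reads. Cardiac markers summed to 14.9 to 1957 FPKM in silica and 22.4 to 62.1 FPKM in saline lungs at day 28. Their part in the histone values was not tested.

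A further 31 tested rows were described as a histone but lay outside the name rule. Of these, 3 were called higher and 0 lower at day 14 (limma), where 2.7% of all tested genes were called higher and 1.66% lower. Their median log2 change was 0.16. At day 28, 2 were called higher and 0 lower, with a median of 0.05, where 5.3% of all tested genes were called higher and 8.47% lower. The calls were H1fx on both days, LOC103690002 (the row beside H2afj) at day 14, and LOC102549173 (ENSRNOG00000060366, described as histone H3), with 0.51 ± 0.13 at day 14 (adjusted p = 0.025) and 0.52 ± 0.13 at day 28 (adjusted p = 0.015; log2, SE, limma), the second of which ended without the 3 saline libraries high in mitochondrial reads (0.44, adjusted p = 0.28). The called LOC102549173 row had 0.163 to 1.05 FPKM in silica, against 0 to 0.178 FPKM in saline lungs at day 14. At day 28 it had 0.219 to 0.983 FPKM in silica, against 0 to 0.39 FPKM in saline lungs. This row was near the floor and passed the filter of 0.5 FPKM through silica libraries alone, so its calls depend on the filter. Other tested rows of that name were not called, with day 14 log2 changes of -0.27 to 0.68. H1fx, a linker histone gene, had the largest change of the 31 on both days. H1fx had 29.0 to 57.4 FPKM in silica lungs, against 6.19 to 8.57 FPKM in saline lungs at day 14, and 21.9 to 34.1 FPKM in silica lungs, against 10.8 to 13.5 FPKM in saline lungs at day 28. The groups did not overlap on either day, and the log2 changes were 2.41 ± 0.13 at day 14 (adjusted p = 1.4e-11) and 1.15 ± 0.13 at day 28 (adjusted p = 1.3e-05; SE, limma). The effect at day 28 was smaller than that at day 14 by a direct test (-1.26 ± 0.18, adjusted p = 0.0048 by limma), which none of the 31 tested histone genes under the name rule passed. Both calls held without those 3 libraries (1.10 at day 28, adjusted p = 0.0019, and -1.31 for the difference, adjusted p = 0.030).

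The authors' deposited table called 6 histone genes higher and 0 lower at day 14 at an FDR under 0.05 (Hist2h2aa2, Hist2h2aa3, Hist2h2ac, Hist2h3c2, H2afj and H2afv), where it called 11.1% of 20600 genes. It called 0 histone genes at day 28, where it called 13.3% of 23197 genes, and 0 between the silica groups of day 14 and day 28, where it called 0.642% of 21812 genes.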

How the data were processed

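RNA-seq libraries from whole rat lung were made after selection on poly-T beads, per the labels' protocols. The deposited values are FPKM made by the authors; the submitters' processing notes name HISAT2 2.1.0, HTSeq 0.9.1, cutadapt 4.0 and FastQC 0.11.9 with the builds Rnor_6.0 and rn6, and the gene models are not given in the sources used here. A second deposited table holds the authors' log2 fold changes, their linear ratios, p-values and FDR for 3 comparisons; their tool is not given in the sources used here. Whole reads were recovered from the FPKM steps for 31521 of 31521 nonzero genes (100.0%, tolerance 0.02 read), and gave depth, mitochondrial percent and 1 alternative test.

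Values were tested as log2(FPKM + 1) for the 20856 genes with at least 0.5 FPKM in at least 6 libraries, with limma 3.58.1 (limma-trend, two-sided) in R 4.3.3, in 1 fit of 4 group means over 24 libraries without covariates and 5 contrasts, with Benjamini-Hochberg adjustment over all tested genes. A fold change on this scale understates the change of low genes. The SE is that of the fit and the SD is over 6 libraries. Python 3.11.15, numpy 2.4.6, pandas 2.3.3 and matplotlib 3.10.9 did the rest; the fit was tested on simulated data. The alternatives were another pseudocount, no filter, equal library medians, limma-voom on recovered reads, only the groups compared, a replicate block, mitochondrial percent as covariate, a threshold of 0.01 and leaving out libraries. The histone genes, companion lists and alternatives were chosen with earlier results of these data known. Named genes were those called in any contrast, all replacement histones, the most abundant replication-dependent gene of each family, and up to 4 called genes per companion list and contrast; Slbp, Npat, Mki67, Cdk1, Hist2h4, RF00100, the histone rows outside the name rule and the neighbours were named besides, after their values were seen. Upstream sequences and gene order came from RefSeq tables of GRCr8; no coordinates of the authors' build were used.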

Additional observations from a re-analysis of the deposited data

Results flagged for a closer look

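Within groups of 6 libraries, 6 values lay far from the other 5, out of 68 sets examined (17 genes in 4 groups), where chance gives about 1 in 20. In silica lungs at day 14, replicate 4 was far above the others for H2afv (59.2 FPKM, others 32.6 to 39.3), H2afy (65.1 FPKM, others 55.8 to 57.8), H3f3c (77.0 FPKM, others 41.7 to 51.3) and Hist2h2aa3 (61.8 FPKM, others 39.2 to 46.9). Without that library the day 14 log2 change was 0.30 for H2afv, -0.07 for H2afy, 0.04 for H3f3c and 1.92 for Hist2h2aa3, of which Hist2h2aa3 stayed called (adjusted p = 0.0031 by limma). In saline lungs at day 28, replicate 6 was far below the others for H2afz (86.6 FPKM, others 126.3 to 146.9) and H3f3a (98.5 FPKM, others 127.1 to 143.7). Without it, the log2 change of H3f3a at day 28 against day 14 within saline was -0.27 and stayed called (adjusted p = 0.010 by limma).

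The silica effect on H1fx, a linker histone gene outside the name rule, was smaller at day 28 than at day 14 by -1.26 on the log2 scale (adjusted p = 0.0048 by limma).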

How the results depend on the processing

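Without 1 library in turn (24 fits), the replication-dependent genes called numbered 3 to 4 at day 14 and 0 to 3 at day 28, and 1 to 3 for day 28 against day 14 within saline; the replacement genes numbered 1 to 2 at day 14 and 2 to 4 within saline. Hist2h2aa2, Hist2h2aa3, Hist2h3c2 and H2afj stayed called at day 14 in all 24 fits. The 2 replication-dependent calls at day 28 became 0 with mitochondrial percent as covariate, without a filter, with only the groups compared, without the 3 saline libraries high in mitochondrial reads and at an adjusted p under 0.01. Replacement calls at day 14 became 2, with H2afv added, under equal library medians and with the mitochondrial covariate. Within saline, replication-dependent calls became 0 with that covariate and at 0.01, and replacement calls became 0 with the covariate, 0 without those 3 libraries and 1 at 0.01; without those 3 libraries 1 replication-dependent call stood, Hist2h2aa2 in place of Hist1h1d. With a replicate block, replication-dependent calls were 3 at day 14 (Hist2h2ac ended, adjusted p = 0.074 by limma) and 0 at day 28. Same-numbered libraries deviated together no more than others on average (mean correlation -0.023 over 36 pairs, range -0.296 to 0.127, beside 0.0051). The labels do not say whether the numbers pair animals, and a mean correlation near 0 cannot exclude it. The other 75 counts under these settings stayed within 1.5 times. Of the values of single genes, 221 stayed the same. For a called value this means that it kept its sign and its call, whatever its size. For an uncalled value it means that it stayed uncalled and within its SE of the main value. A further 12 uncalled values moved by more than that, 26 calls ended and 2 values gained a call. No called value changed sign. Causes were not tested. Genes with few reads, such as Hist2h3c2, are limited by depth.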
